A study of Schizosaccharomyces pombe with 5 samples.

Results

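The genes of the mitochondrial respiratory chain and of the ATP synthase were chosen by name. The rule took every gene of the expression tables whose name is atp, cox, qcr or sdh followed by a number, together with cyc1, cyt1, rip1, nde1, nde2 and tim18. It found 60 of 5145 listed genes, 55 by prefix and 5 by name. The name nde2 has no row of its own, and RefSeq gives it as a synonym of nde1. Of the 60 genes, 36 encode structural subunits, the electron carrier cytochrome c or an NADH dehydrogenase and lie in the nucleus. Another 18 encode nuclear factors that assemble the complexes or express their mitochondrial subunits, and 6 lie in the mitochondrial genome.

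The RNA came from Schizosaccharomyces pombe, the fission yeast, of the wild-type strain 972 h-, grown at 30 °C. The cultures were treated with 3 mM diamide for 30 min (DIA30) or 60 min (DIA60), with 75 mM hydroxyurea for 60 min (HU60) or 150 min (HU150), or left untreated. Diamide oxidizes thiols, and hydroxyurea inhibits ribonucleotide reductase. The sequencing statistics list 15 libraries over these 5 conditions, with 24116729 to 24274040 read pairs each.

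For each gene the level used here is 1 mean normalized count over all libraries, treated and untreated together, as the authors averaged it. It therefore says how much of the RNA of this experiment a gene contributed, and it does not say how the gene responded to a drug. There is no value per library or per condition behind it here, so no level carries a standard deviation, no difference between genes was tested, and the order of neighbouring values is a description. Levels per kb are levels divided by the coding length in kilobases (kb), unless another length is named. The lengths are taken from the RefSeq annotation of assembly ASM294v3. Counts and shares of counts are not divided, so between genes they also depend on length.

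As background, the respiratory chain passes electrons from NADH and succinate to oxygen in the inner mitochondrial membrane and pumps protons, and the ATP synthase uses the proton gradient to make ATP. Fission yeast lacks the proton-pumping complex I found in mammals and feeds electrons in through single-subunit NADH dehydrogenases and through complex II (succinate dehydrogenase). The electrons then pass by ubiquinone to complex III, by cytochrome c to complex IV (cytochrome c oxidase), and the ATP synthase is counted as complex V. Several subunits carry iron, as heme or as iron-sulfur clusters, and complex IV also needs copper.

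All 36 nuclear structural genes had a level per kb above that of the median gene. Their median was 7324 normalized counts per kb, against 1072 over the 5105 genes with a coding length, a ratio of 6.83. The lowest of them was atp7 at the 79.6 percentile (79.6% of the 5105 genes had a lower level per kb), the highest was cyc1 at the 95.7 percentile, and 19 of the 36 stood above the 90th. The 18 assembly and expression factors had a median of 1087 per kb, close to that of all genes, with 9 above and 9 below the median gene. All 36 structural genes had a higher level per kb than cox14, the highest of the factors, at 2645. Together the 60 genes took 1.005% of all normalized counts and were 1.17% of the listed genes. Most of this share came from the 36 structural genes, with 0.954% of all normalized counts, against 0.0505% for the 18 factors. The catalytic pair atp1 and atp2 alone held 26.0% of the counts of the 60.

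**Figure D1:**
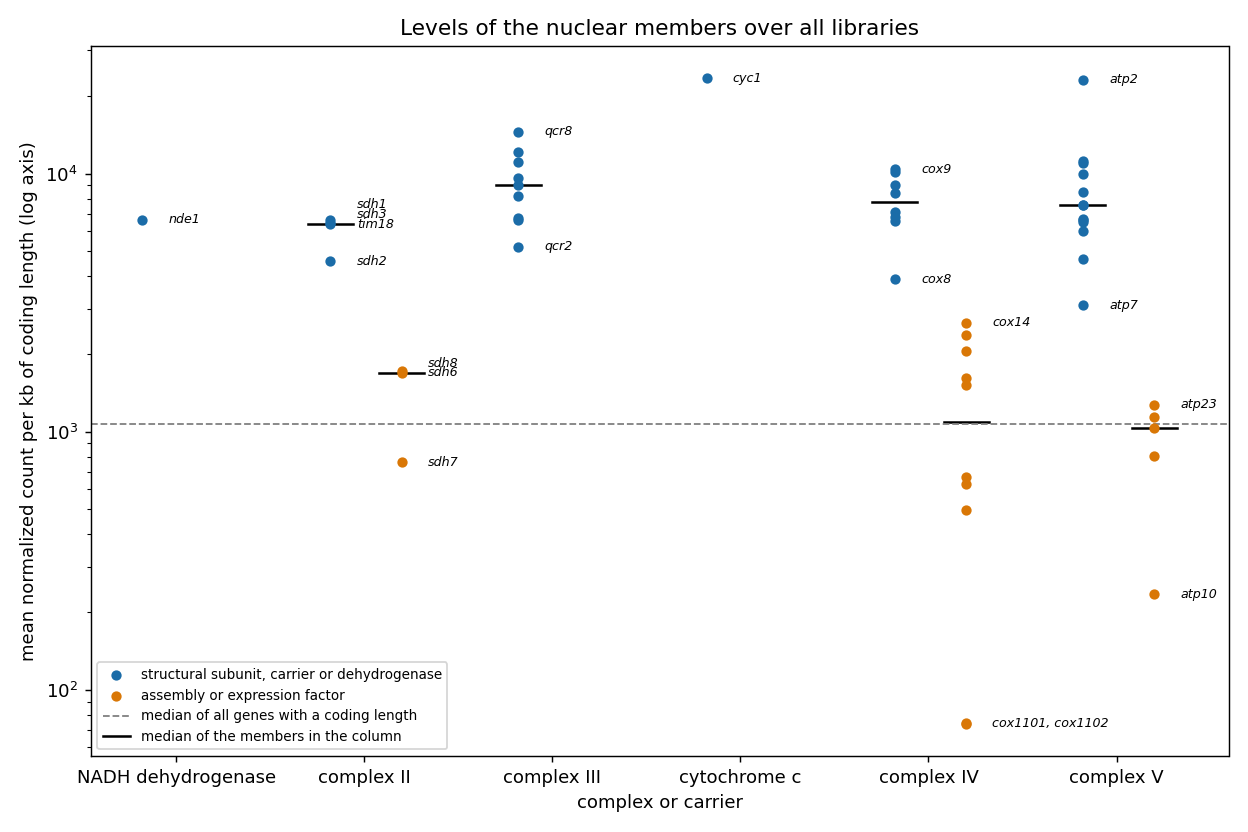
Mean normalized count per kb of coding length (log axis) of the 54 nuclear genes, 1 point per gene, by complex or carrier; blue points are structural subunits, carriers or dehydrogenases, orange points are assembly or expression factors, black bars are medians of a column with more than 1 gene, and the dashed line is the median of all genes with a coding length (1072). Every blue point lies above the dashed line, while the orange points lie on both sides of it, down to cox1101 at 73.7.

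The length used for the division changed single values and the order of some groups. With the longest annotated RefSeq transcript without introns, UTRs included, all 36 structural genes again stood above the median gene, between the 80.0 and the 96.2 percentile (median 89.4). The 18 factors had a median percentile of 26.4 on that scale, against 50.5 by coding length, and 3 of them stood above the median gene. The annotated transcripts of the factors were longer relative to their coding part, at a median of 2.15 times the coding length, against 1.62 times for the structural genes. Reads that fall in UTRs were part of the level if the authors' annotation held them, and that annotation was not at hand.

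Among the members, the nuclear genes for the entry of electrons are nde1 and those of complex II. Other entry points are not covered by the name rule. The mRNA of nde1 (SPAC3A11.07), for an NADH dehydrogenase that faces the intermembrane space, had a mean of 10949 normalized counts, or 6611 per kb. The 4 subunits of complex II lay within 1.44-fold per kb of coding length, and within 2.15-fold per kb of spliced transcript. The flavoprotein gene sdh1 (SPAC1556.02c), whose product oxidizes succinate, had 12702 normalized counts and 6595 per kb. The membrane anchor gene sdh3 (SPCC330.12c) had 6428 per kb, and the other anchor gene tim18 (SPBP23A10.16), listed by RefSeq also as sdh4, had 6368 per kb. The lowest was sdh2 (SPAC140.01), which encodes the subunit with the iron-sulfur clusters that carry the electrons to ubiquinone, with 3788 normalized counts and 4575 per kb. Its level per kb was 0.712 times that of sdh3. The genes of the assembly factors stood lower, with 1719 per kb for sdh8, 1692 for sdh6 and 761 for sdh7. By their homologues in budding yeast, Sdh8 holds the flavinylated Sdh1 before assembly, while Sdh6 and Sdh7 act on the maturation of the iron-sulfur subunit.

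The median of complex III was 9069 per kb over 9 subunits, against 6398, 7759 and 7532 for complexes II, IV and V. This order rests on the coding length. Per kb of spliced transcript the medians were 4415 for complex III, and 4825, 4567 and 3881 for complexes II, IV and V. Its range ran from 5211 per kb for qcr2 (SPCC613.10), a core subunit, to 14513 for qcr8 (SPAC1782.07), a small subunit, which is 2.79-fold. The second core subunit gene, qcr1 (SPBP23A10.15c), had 9085 normalized counts and 6612 per kb. The other short genes of the complex also had high values per kb, with 11065 for qcr10, 9612 for qcr7 and 9069 for qcr9. The gene qcr6, with a longer coding length of 645 bases, had 12075. Per kb of spliced transcript the complex spanned 2.82-fold, in another order. There qcr6 was highest at 8644, qcr8 had 6817 and qcr1 4415, and qcr7 (3772) and qcr9 (3068) were the lowest. The genes of the subunits that carry iron stood inside this range. The cytochrome c1 gene cyt1 (SPBC29A3.18) had 6227 normalized counts and 6739 per kb, and rip1 (SPBC16H5.06), which encodes the Rieske iron-sulfur protein, had 5635 normalized counts and 8202 per kb. The ratio of cyt1 to rip1 per kb was 0.822.

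The gene cyc1 (SPCC191.07) encodes cytochrome c, the heme protein that shuttles electrons from complex III to complex IV. At 7725 normalized counts and 23409 per kb it had the highest level per coding length of the 54 nuclear genes, 3.47 times that of cyt1. Its annotated transcript is long compared with its coding length of 330 bases, and divided by the spliced transcript length its level was 6563 per kb, below that of qcr8 and 1.5 times that of cyt1.

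Of complex IV, 8 structural genes lie in the nucleus, and their median was 7759 per kb. The largest values belonged to cox9 (10415 per kb), cox12 (10099) and cox5 (9013), and cox13 (8403), cox6 (7115), cox4 (6772) and cox7 (6548) followed. The lowest was cox8 (SPAC24C9.16c) with 784 normalized counts and 3901 per kb. All of these encode small subunits that surround the catalytic core made in the mitochondrion, and the range was 2.67-fold. With the gene length from first to last base, scaled so that the median gene keeps its value, the median of complex IV was 4961.

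The factors of complex IV spanned 35.9-fold per kb, or 15.4-fold per kb of spliced transcript. The low end of both spans was set by cox1101, and the lowest factor outside its gene pair was cox18 at 496 per kb. The iron-related member is cox10 (SPBC365.02c), the heme O synthase that makes the precursor of the heme of complex IV, with 780.0 normalized counts and 670 per kb, at the 33.2 percentile. The next enzyme of that path, the heme A synthase known as cox15 in budding yeast, is part of the fission yeast gene etp1 and so falls outside the name rule, at 2409 per kb. The copper factors were low to middling, with 1517 per kb for the copper chaperone gene cox17 (SPBC26H8.14c) and 626 for cox19 (SPCC1672.04c). The gene pair cox1101 (SPAC1420.04c) and cox1102 (SPAC19B12.13), duplicate genes that carry the copper factor Cox11 fused to a mitochondrial ribosomal factor, had 167 and 168 normalized counts, and 73.7 and 74.3 per kb, the 2 lowest values of the nuclear genes. The copies are nearly identical, and how reads that fit both were counted is not given in the sources used here. Their values, their rank as the lowest and the spans that rest on them are therefore uncertain. Of the remaining factors, cox14 had 2645 per kb, cox24 2363, cox16 2059, cox20 1613 and cox18 496. In budding yeast, Cox14 and Cox16 assist assembly around Cox1, Cox18 and Cox20 help to insert Cox2, and Cox24 is needed for the expression of Cox1.

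The ATP synthase took 0.421% of all normalized counts through its 13 nuclear structural genes. Their median was 7532 per kb, and they spanned 7.49-fold, the widest range of the complexes. The catalytic beta subunit gene atp2 (SPAC222.12c) had 36409 normalized counts and 23073 per kb, the largest count of the 60 genes. Its partner in the catalytic ring, the alpha subunit gene atp1 (SPAC14C4.14), had 17980 normalized counts and 11161 per kb, so that atp2 stood at 2.07 times atp1. The assembled ring holds alpha and beta in equal number. With the spliced transcript length atp2 had 19224 per kb and atp1 3750, a ratio of 5.13, because the annotated atp1 transcript is long. The gene of the rotating gamma subunit, atp3, had 7582 per kb, and the other stalk subunits of the F1 head had 10940 (atp15, epsilon) and 6509 (atp16, delta). The median of the 5 F1 genes was 10940 per kb, against 6656 for the 8 genes of the peripheral stalk and of the membrane part, and per kb of spliced transcript the medians were 3972 and 3471. Among these 8, atp17 had 9922 per kb, atp14 8469, atp20 7532, atp18 6681, atp4 6631, atp5 5985 and atp19 4653. The lowest structural gene of all was atp7 (SPBC29A10.13), a subunit of the peripheral stalk, with 1627 normalized counts and 3082 per kb.

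The factors of the ATP synthase were lower. The chaperone genes atp11 and atp12, whose products bind the beta and the alpha subunit before the F1 head is built, had 1140 and 808 per kb. The genes atp23, for a protease that processes Atp6 in budding yeast, and atp25, needed there for the mRNA of Atp9, had 1271 and 1033 per kb. The gene atp10 (SPAC4G8.11c), whose budding yeast homologue assembles Atp6, was the lowest of the complex with 188 normalized counts and 234 per kb, at the 10.9 percentile.

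**Figure D2:**
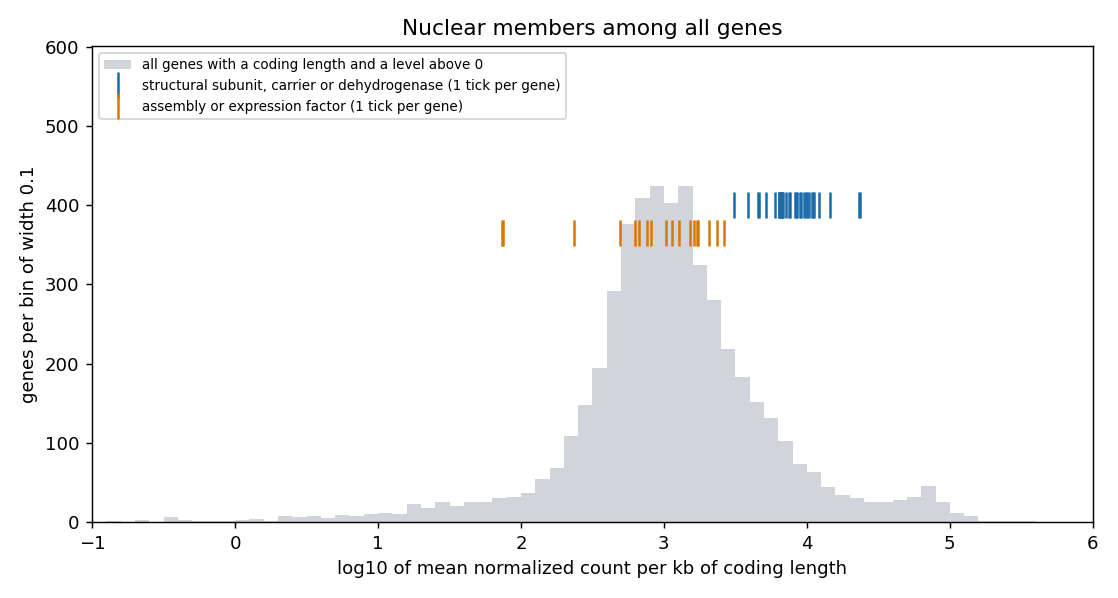
Histogram of log10 mean normalized count per kb of coding length for all genes with a coding length and a level above 0 (bars, bins of width 0.1), with 1 tick for each of the 36 structural genes (blue) and the 18 assembly and expression factors (orange). The blue ticks lie on the right flank of the histogram, from 3082 (atp7) to 23409 (cyc1) normalized counts per kb. The orange ticks spread from 73.7 (cox1101) to 2645 (cox14), with 9 above and 9 below the median of all genes with a coding length.

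The 6 nuclear genes for subunits or carriers with heme or iron-sulfur clusters (sdh2, sdh3, tim18, cyt1, rip1 and cyc1, counting both anchors of complex II) had a median of 6583 per kb, against 7557 for the other 30 structural genes. Per kb of spliced transcript the order turned, with 4475 for the 6 genes and 4297 for the other 30, so no direction is drawn. By coding length the 6 ranged from sdh2 at 4575 to cyc1 at 23409, inside the range of the others apart from cyc1. For the supply of iron cofactors, the 8 heme synthesis genes had a median of 2363 per kb, with hem13 (coproporphyrinogen oxidase) highest at 6666 and hem15 (ferrochelatase, which inserts the iron) lowest at 452. Of 14 listed genes of iron-sulfur cluster assembly 12 were found by name, with a median of 2558 per kb, from 34255 for the mitochondrial chaperone gene ssc1 to 559 for jac1, its partner. The scaffold gene isu1 had 9024 per kb. Of 13 listed genes of ubiquinone synthesis 12 were found, and they had a median of 1380 per kb, between dps1 at 860.5 and coq5 at 2659. Among 6 regulators, the genes of the CCAAT-binding factor had 3037 per kb (php3), 1911 (php4, the subunit that represses genes of iron-using proteins when iron is low), 1811 (php5) and 595 (php2). The iron-responsive repressor gene fep1 had 1208, and grx4, for a glutaredoxin that signals iron to both, had 9122.

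The 6 genes of the mitochondrial genome were near 0. The levels were 27.0 normalized counts for cox1, which encodes the subunit with the hemes and a copper centre, 6.09 for cox3, 1.68 for cox2, which holds the other copper centre, 0.331 for atp6 and 0.129 for atp9. The gene atp8 was listed at 0, in 2 of the 4 tables. The mitochondrial gene cob1, for cytochrome b of complex III, is outside the name rule and had 1.79 normalized counts. The lowest nuclear structural gene by count was cox8 with 784. The libraries were made as strand-specific mRNA libraries by the labels. Whether the mitochondrial transcripts were scarce or were not captured cannot be told apart from these values. No level per kb is given for these genes, because the RefSeq mitochondrial genes carry other identifiers.

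**Figure D3:**
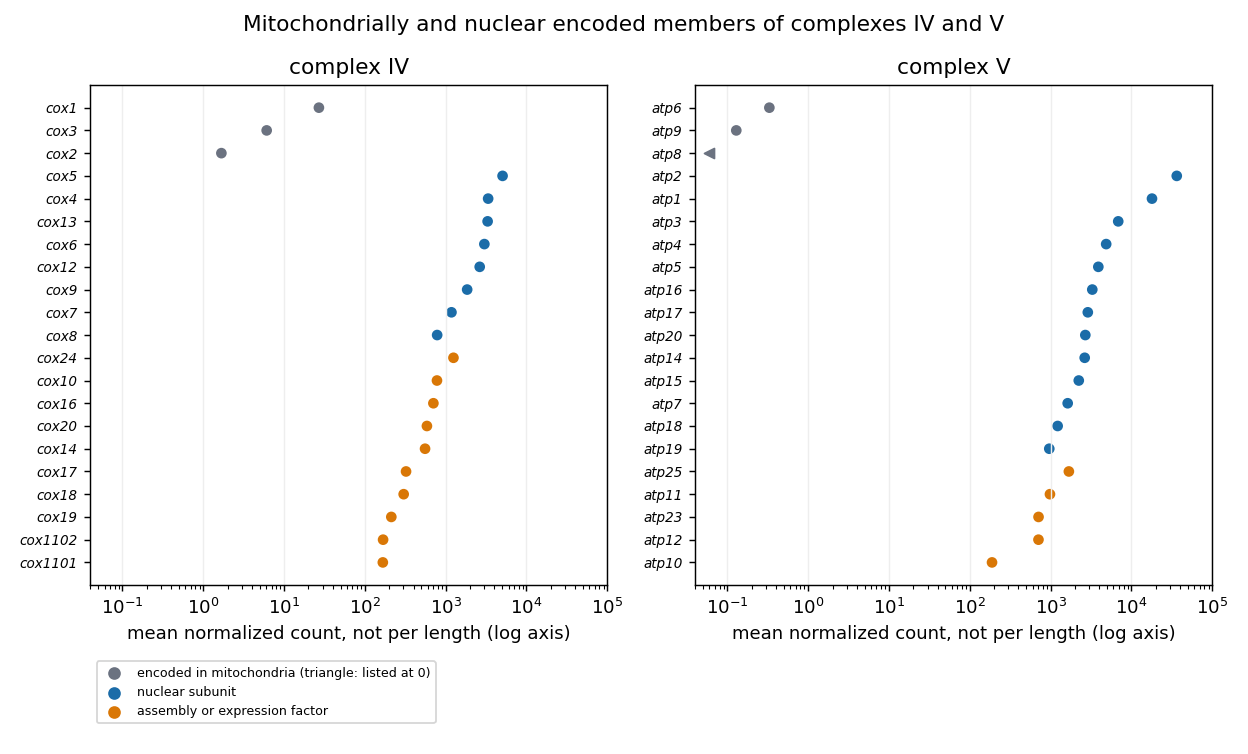
Mean normalized count (log axis, not divided by length) of each gene of complex IV (left) and complex V (right); grey points are genes of the mitochondrial genome, blue points nuclear subunits and orange points assembly or expression factors, and the triangle marks atp8, listed at 0. The grey points lie at or below 27.0 (cox1), while the nuclear genes lie between 167 (cox1101) and 36409 (atp2).

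Among protein-coding genes of the RefSeq annotation, 2 pairs of members are direct neighbours. The genes qcr1 and tim18 had 6612 and 6368 per kb, and cox17 and sdh8 had 1517 and 1719 per kb. Per kb of spliced transcript the values were 4415 and 5878 for qcr1 and tim18, and 857 and 657 for cox17 and sdh8. Members that are not neighbours came as close by coding length, such as nde1 at 6611 and sdh1 at 6595. In the same annotation 18 members overlap another protein-coding gene, among them atp1, cyc1, rip1, qcr8 and all 5 factors of the ATP synthase. The share over all protein-coding genes is not given here, so the count is not read as a trait of the members. Whether the counting used the strand, and how reads in an overlap were assigned, is not given in the sources used here. The counts of these 18 members may therefore hold reads of the neighbour or lack reads of their own.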

How the data were processed

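RNA of fission yeast in 5 conditions was sequenced, and the statistics list 15 libraries, while the labels name 1 sample per condition. Per the labels and the paper's methods, alignment to ASM294v2 used STAR 2.7.10a and SAMtools 1.3, and counting used HTSeq 2.0.1. The deposited signal is 1 mean count per gene over every library, normalized by the authors with the size factors of DESeq2. The tables, 1 for each treatment against the control, also hold the authors' log2 fold changes, standard errors, Wald statistics and p-values. These are the authors' own comparisons and were not used, so no comparison between conditions is given. The mean was equal in the 4 tables, with a largest difference of 0.

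The largest table (5145 genes, 5134 above 0) was used. Coding lengths of 5105 genes, matched by locus tag, came from RefSeq assembly ASM294v3, a later build than the ASM294v2 of the authors. Its coordinates were used only for lengths, for the order of neighbouring genes and for overlaps, and none of its sequence was used. Levels were divided by the coding length in kb (1000 bases) and ranked, in Python 3.11.15 with pandas 2.3.3. Simulated data checked only the arithmetic of division and ranking, not the choice of length or the counts. Every member is named, and full values go to the extremes of each complex, to genes of iron, copper and catalytic subunits, and to duplicates. Alternatives were the other tables, other lengths, minimum levels of 10 and 50, other averages and other members. The members and lists were chosen with earlier results of these data known. Motif counts in promoters and proteins were not run, since no sequence table of the authors' build was used here.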

Additional observations from a re-analysis of the deposited data

How the results depend on the processing

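A value was taken as changed when it moved by more than 1.5 times, or by more than 5 percentile points, since no spread between replicates was at hand. The median level of complex IV was 7759 normalized counts per kb, and it was 4961 with gene lengths from first to last base and 2504 with assembly factors included. The other 34 alternatives for the medians of the complexes stayed within these limits, among them all for complexes II, III and V. The order of the complexes changed within these limits: scaled to the median gene, complex II had 7508 and complex III 6809 with gene lengths, and 7183 and 6572 with spliced transcript lengths. All 238 repeats of a level over the tables were equal, and they include the largest table set against itself. Each table holds the same mean over all libraries, so these repeats could not differ and do not test the levels. Of 216 alternative percentiles of single genes 37 changed, and each of these came from another length. The 216 include the minimum levels of 10 and 50, which only remove the lowest genes from the ranking. With 5014 genes at 10 or more, against 5105 with a coding length, these settings left little room for a change. With gene lengths from first to last base 8 of 36 structural genes and 13 of 18 factors changed, and with spliced transcript lengths, an alternative chosen after seeing the data, 3 and 13 did. On these scales the factors had median percentiles of 26.3 and 26.4. No paired analysis was possible because the files give no value per library here, and no replicate could be left out for the same reason. Promoter and protein motif alternatives were not run. All 54 nuclear genes had a level of at least 50, while 5 of the 6 mitochondrial genes were under 10, where a few reads set the value.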
